A study of Mus musculus with 16 samples.

Results

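The zinc finger protein genes described here are the RNAs whose mouse symbol is Zfp followed by a number, the name given in the mouse to proteins that hold zinc-binding folds and mostly act on DNA or RNA. The table of 12900 RNAs holds 253 of them, and the 167 with a mean log2 CPM of at least 1 over all 16 samples were taken as members. The members were thus chosen by their symbol and by their mean level over all samples, and this choice was made with earlier results of these data known. No difference between fractions or lines is part of the rule itself. The threshold is still not independent of the results, since the rows under it differed from the members in their fold changes, as given below. Just inside the threshold lay Zfp597, Zfp157 and Zfp952, with a mean log2 CPM of 1.05, 1.08 and 1.11. Just outside it lay Zfp715, Zfp772 and Zfp770, with 0.99, 0.92 and 0.87. The 86 rows that were left out had means between -2.86 and 0.99.

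RNA was measured in protrusions (Ps) and cell bodies (CB) of NIH/3T3 cells, an established line of mouse embryonic fibroblasts. One line carried a doxycycline-inducible construct with the β-globin coding sequence and the β-globin 3′UTR (HBB, the control). The other carried the same coding sequence followed by the 3′UTR of Pkp4 as a competitor (Pkp4 cUTR), which was made to draw on the machinery that places a set of RNAs at protrusions. Both lines had received doxycycline at 1 µg/ml for 3 days, were starved of serum and spent 2 h on filters with 3 µm pores. They then received lysophosphatidic acid (LPA) for 1 h, and 10 min of paraformaldehyde (0.3%) ended the assay. Each of the 4 groups (HBB CB, HBB Ps, Pkp4 CB, Pkp4 Ps) had 4 replicates. Each construct was studied in 1 stable line, so a difference between the lines and a difference between the constructs cannot be told apart. Cell bodies and protrusions were collected from separate filters.

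Most zinc finger proteins of vertebrates carry tandem C2H2 fingers, in which a pair of cysteines and a pair of histidines hold a zinc ion and each finger reads a few bases of DNA. Many of them also carry a KRAB box, which recruits the corepressor Trim28 (KAP1) and, through it, the histone methyltransferase Setdb1, and these KRAB zinc finger proteins silence retroelements and imprinted genes. A small separate class, the CCCH proteins of the Zfp36 family, binds AU-rich elements in the 3′UTR of short-lived mRNAs and brings the CCR4-NOT deadenylase to them. For a fibroblast, whose protrusions hold a selected set of mRNAs, these genes mostly encode proteins that return to the nucleus after translation.

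The samples held 18660287 to 31260831 counted reads, and 3 reads corresponded to 0.089 to 0.176 CPM (counting error only). The fewest reads of a member in any sample were 22. As a check of the line labels, the Pkp4 row, whose reads include those of the construct's 3′UTR, measured 4.43 to 4.53 log2 CPM in HBB cell bodies and 8.26 to 9.32 in Pkp4 cUTR cell bodies. Of 10 fibroblast markers 9 had a row, with a summed level of 14.4 to 15.1 log2 CPM, against at most 3.01 for the 2 immune markers and at most 0.93 for the 2 endothelial markers with a row. The 3 epithelial markers with a row (Cdh1, Krt14 and Krt8) had a summed level of 7.27 to 8.16. The 5 RNAs named as protrusion RNAs (Rab13, Net1, Kank2, Cyb5r3 and Pkp4) were all higher in HBB protrusions, with a median log2 fold change of 2.31. Cell body replicate 4 of each line had the lowest level of the members among the cell bodies of that line. The outlier criterion used below flagged neither. Results are also given without these libraries, a setting that was not planned.

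All 253 rows were found in the annotation (GENCODE mouse release 21, GRCm38), where the member Zfp191 has the newer symbol Zfp24. Of the 167 members, 166 were annotated as protein-coding and 1 (Zfp335os) as antisense. In the translated coding sequences 52 members held a KRAB pattern, 107 held C2H2 fingers without it, 3 held CCCH fingers (Zfp36, Zfp36l1 and Zfp36l2) and 4 held neither (Zfp703, Zfp330, Zfp365 and Zfp839). Chromosome 7, which holds large clusters of such genes, carried 46 of the members (27.5%, against 7.46% of all RNAs), 19 of them with a KRAB pattern. KRAB genes were more frequent among the rows under the threshold (63 of 86, 73.3%) than among the members (31.1%). Many KRAB genes are close copies of each other, and how the authors counted reads that match several copies is not given in the sources used here, so the split of reads between such genes is uncertain.

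The members were RNAs of low to moderate level. Their median level was 3.29 log2 CPM, against 3.92 for all RNAs, and 57 of them exceeded 20 CPM. Per kilobase of exons the median was 2.15 CPM, against 6.10 for all RNAs that pass the same threshold. The 5 highest by mean log2 CPM were Zfp703 (8.17), Zfp385a (7.83), Zfp706 (7.57), Zfp36l2 (7.42) and Zfp622 (7.08). Per kilobase, Zfp385a (91 CPM per kb) lay above Zfp703 (86.3 CPM per kb). The KRAB genes had a median of 2.12 log2 CPM and the other C2H2 genes one of 4.22. Together the members took 0.428% to 0.494% of the counted reads in the 8 cell body samples and 0.299% to 0.371% in the 8 protrusion samples, without overlap. These are shares of total reads. On that scale the median log2 fold change of protrusions over cell bodies was also negative over all RNAs (-0.23 in HBB and -0.25 in Pkp4 cUTR cells).

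The first question was in which fraction these RNAs were more abundant. More members were lower in protrusions than higher. In HBB cells 76 of 167 members (45.5%) passed the test as lower in protrusions, against a background of 28.9% of all RNAs, and 30 (18%) passed as higher, against 28.3%. In Pkp4 cUTR cells 76 (45.5%) were lower, against 28.5%, and 38 (22.8%) were higher, against 28.2%. The background includes RNAs under the level threshold of the members. Among the 9504 other RNAs with a coding transcript and a mean log2 CPM of at least 1, 33.8% were lower and 30.7% higher in HBB cells. For Pkp4 cUTR cells these shares were 33.9% and 30.0%. The test was limma-voom with adjusted p under 0.05, where p was adjusted after Benjamini and Hochberg over all 12900 RNAs. Since each sample is a bulk fraction of many cells, fewer cells with an RNA in the protrusion and less of it per protrusion cannot be told apart.

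The median log2 fold change of protrusions over cell bodies was -0.17 over the members in HBB cells (quartiles -0.57 and 0.22), against 0.01 over all RNAs. In Pkp4 cUTR cells it was -0.20 (quartiles -0.52 and 0.23), against 0.01. In each line 106 of the 167 values (63.5%) lay below 0. Taken between fractions of the same replicate number, the median over the members was -0.29, -0.18, -0.33 and -0.07 in HBB cells and -0.15, -0.29, -0.35 and -0.05 in Pkp4 cUTR cells. It was negative for all 8 numbers. The numbers do not pair cell bodies with protrusions, so this matching is arbitrary and the 8 values are not paired replicates. Complete separation of the groups, with all 4 protrusion samples below all 4 cell body samples, was seen for 67 members in HBB cells (40.1%, against 26.8% of all RNAs). The reverse separation was seen for 30 (18%, against 25.5%).

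**Figure D1:**
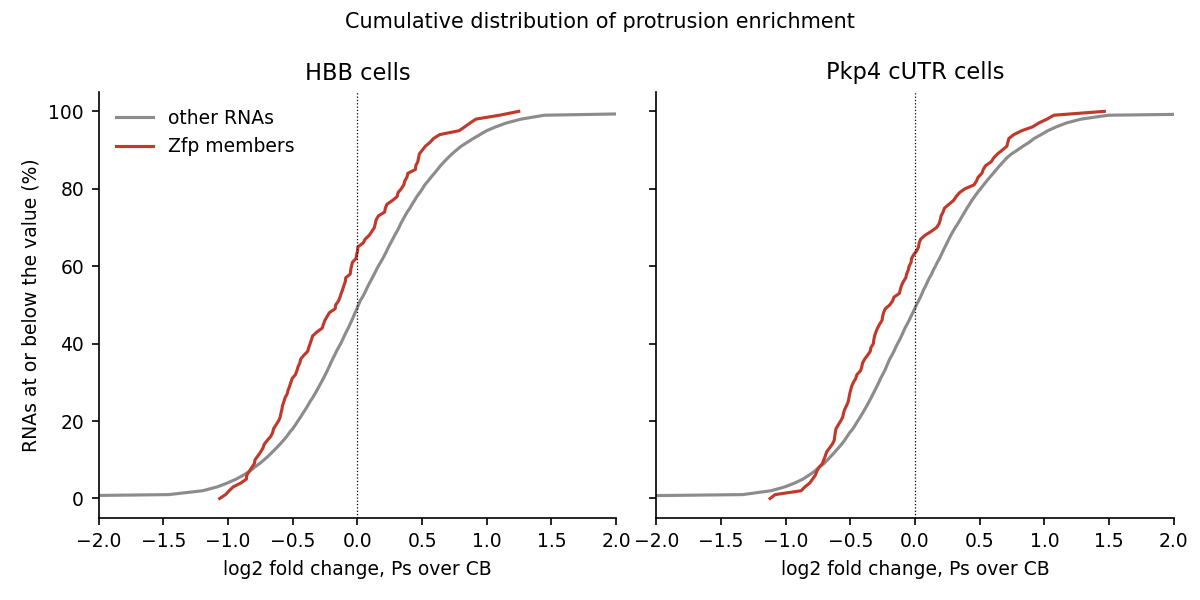
Cumulative share (%) of RNAs at or below each log2 fold change of protrusions over cell bodies, for the 167 Zfp members (red) and for all RNAs that are no Zfp row (grey), in HBB cells (left) and Pkp4 cUTR cells (right). The red curve lies left of the grey one over most of its length, with medians of -0.17 and -0.20.

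The size of these differences was modest. With the study's threshold of a fold change above 2 and an unadjusted p under 0.05, 3 members were enriched in HBB protrusions (Zfp931, Zfp277 and Zfp938) and 3 were depleted (Zfp217, Zfp169 and Zfp446), or 1.80% each, against 4.54% and 4.00% of all RNAs. For Pkp4 cUTR cells 5 were enriched (Zfp68, Zfp931, Zfp277, Zfp644 and Zfp60), against 5.07% of all RNAs, and 3 were depleted (Zfp36l2, Zfp217 and Zfp169), against 2.92%. Over all members the log2 fold changes ranged from -1.06 to 1.25 in HBB cells and from -1.12 to 1.46 in Pkp4 cUTR cells.

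The set level, defined as the median over the members of log2 CPM centred over the samples, was 0.12, 0.12, 0.09 and -0.03 in HBB cell bodies and -0.16, -0.08, -0.16 and -0.08 in HBB protrusions. It was 0.11, 0.18, 0.15 and 0.04 in Pkp4 cUTR cell bodies and -0.07, -0.07, -0.14 and -0.01 in Pkp4 cUTR protrusions. In both lines every cell body sample lay above every protrusion sample, and replicate 4 was the lowest of the cell bodies. Without replicate 4 of both cell body groups, 31 members were higher and 78 lower in HBB cells, 39 were higher and 80 lower in Pkp4 cUTR cells, and the medians were -0.22 and -0.26.

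**Figure D2:**
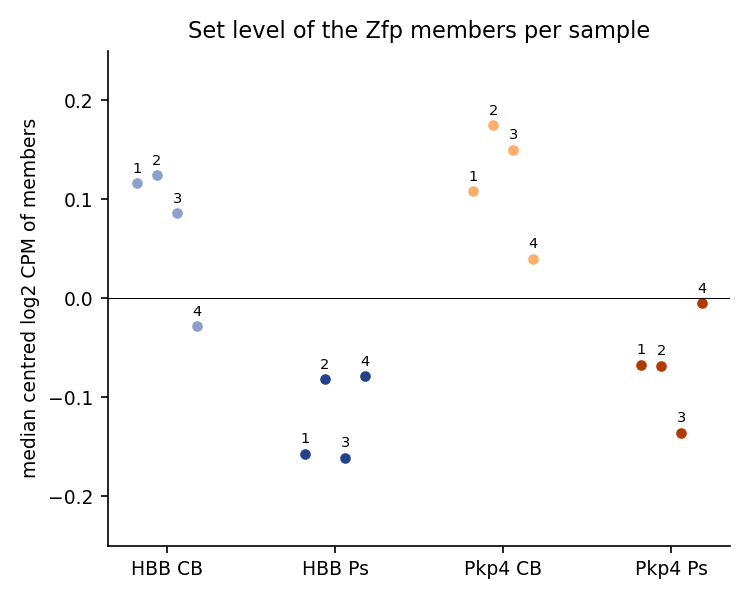
Set level of the 167 members in each sample (median over members of centred log2 CPM), with replicate numbers beside the points, for the 4 groups. Cell bodies lie at -0.03 to 0.18 and protrusions at -0.16 to -0.01, and within each line the fractions do not overlap.

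The scale of the fold changes depends on the library sizes. The factors by which the authors scaled the libraries were 1.07 to 1.11 in cell bodies and 0.828 to 0.974 in protrusions. With total reads in their place, the median over all RNAs moved to -0.23 in HBB cells and -0.25 in Pkp4 cUTR cells and that over the members to -0.41 and -0.46, and 16 members were higher and 95 lower in HBB cells and 22 and 104 in Pkp4 cUTR cells. Under that scaling 15% of all RNAs were higher and 43.5% lower in HBB cells, and 13.9% and 45.5% in Pkp4 cUTR cells. The median over the members stayed below that over all RNAs. The summed level of listed nuclear RNAs also differed between the fractions. The 4 nuclear RNAs with a row of 7 listed had a summed level of 9.18 to 9.50 log2 CPM in HBB cell bodies and 7.34 to 8.31 in HBB protrusions. In Pkp4 cUTR cells it was 8.90 to 9.08 and 7.57 to 8.12. Singly, 1 of the 4 nuclear RNAs was higher and 2 were lower in protrusions, in each line. Their part in the result was not tested.

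The calls of the lines, which came from separate samples, overlapped. Of the 76 members lower in HBB protrusions, 72 (94.7%) were also lower in those of Pkp4 cUTR cells, and of the 30 higher ones 29 (96.7%) were also higher, which is 76.3% of the 38 higher there. Among all RNAs these shares were 87.4% and 84.9% of those called in HBB cells. None was called in opposite directions, 159 of 167 had the same sign, and 48 were called in neither line. Across the 167 members the log2 fold changes of the lines had a Pearson r of 0.957 and a Spearman rho of 0.967 (r of 0.912 across all RNAs). These points share their libraries and are not independent replicates.

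**Figure D3:**
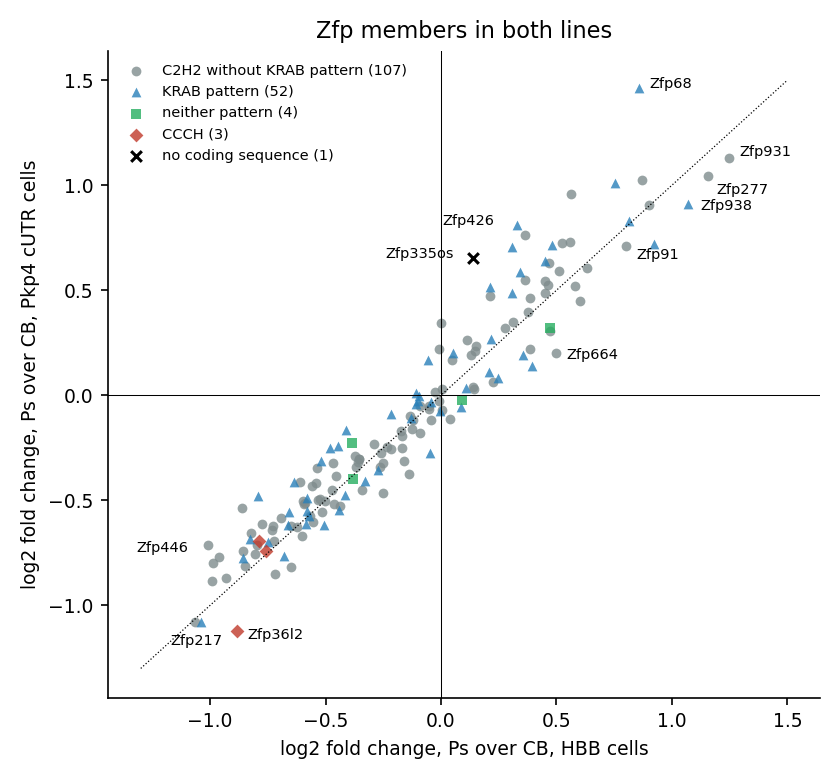
Log2 fold change of protrusions over cell bodies for each of the 167 members in HBB cells (horizontal) and in Pkp4 cUTR cells (vertical), with symbols for the protein class and the dotted line marking equal values. The points follow the dotted line, with Zfp931 and Zfp277 at the top in both lines, Zfp217 and the CCCH gene Zfp36l2 at the bottom, and Zfp68, Zfp426 and Zfp335os above it.

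The highest log2 fold change in HBB cells was that of Zfp931. This RNA, of a C2H2 gene with 7 fingers at chr2:178067695-178078476, measured 0.62, 0.77, 0.53 and 1.01 log2 CPM in HBB cell bodies and 1.79, 2.16, 1.87 and 2.00 in HBB protrusions. The Pkp4 cUTR samples gave 1.08, 0.65, 0.83 and 1.22 in cell bodies and 2.09, 2.07, 2.25 and 1.86 in protrusions. In both lines all protrusion samples lay above all cell body samples, with a log2 fold change of 1.25 ± 0.16 (SE, 4 samples a group) in HBB cells (adjusted p = 2.75e-06) and 1.13 ± 0.15 in Pkp4 cUTR cells (adjusted p = 7.24e-06).

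Zfp277, known for bringing Polycomb proteins to the Ink4a/Arf locus, was among the highest in both lines. In HBB cells Zfp277 measured 2.99, 2.79, 3.05 and 2.78 log2 CPM in cell bodies and 4.03, 4.14, 4.10 and 4.00 in protrusions. The Pkp4 cUTR samples measured 3.41, 3.09, 2.75 and 3.27 and 4.13, 4.21, 4.27 and 4.08. The fractions did not overlap in either line, with 1.16 ± 0.11 in HBB cells (adjusted p = 2.19e-07) and 1.05 ± 0.11 in Pkp4 cUTR cells (adjusted p = 7.07e-07). The KRAB gene Zfp938 had log2 fold changes of 1.07 ± 0.13 and 0.91 ± 0.13 and no overlap. For Zfp386 (KRAB) the values were 0.92 ± 0.18 and 0.72 ± 0.19, and for Zfp260, a C2H2 gene without KRAB, they were 0.90 ± 0.12 and 0.91 ± 0.12. Zfp644, whose protein is a partner of the histone methyltransferases G9a and GLP, had 0.87 ± 0.19 and 1.02 ± 0.18. All of these passed the test in both lines.

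Zfp68, a KRAB gene with 9 fingers, had the highest value in Pkp4 cUTR cells. Its levels there were 0.71, 0.30, 0.65 and 1.34 log2 CPM in cell bodies and 1.88, 2.56, 2.33 and 2.10 in protrusions. In HBB cells they were 0.84, 1.13, 1.11 and 0.41 and 2.03, 1.90, 1.31 and 1.76. The fractions did not overlap in either line, and the log2 fold change was 1.46 ± 0.22 in Pkp4 cUTR cells (adjusted p = 2.2e-05) and 0.86 ± 0.22 in HBB cells (adjusted p = 0.0028). Zfp60 (KRAB, 19 fingers) had 1.01 ± 0.18 in Pkp4 cUTR cells and Zfp397 (C2H2) had 0.96 ± 0.20. Their values in HBB cells were 0.75 ± 0.17 and 0.56 ± 0.20. The call for Zfp397 in HBB cells was lost without HBB CB replicate 3 or HBB Ps replicate 2 (adjusted p = 0.0554 to 0.0749) and with libraries scaled to total reads (0.32, adjusted p = 0.175).

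At the other end stood Zfp217, which encodes a C2H2 corepressor known as an oncogene of breast cancer. In HBB cells Zfp217 measured 4.17, 4.28, 4.19 and 3.71 log2 CPM in cell bodies and 2.97, 3.42, 2.73 and 3.00 in protrusions. The Pkp4 cUTR values were 4.08, 4.13, 4.00 and 3.54 and 3.14, 2.78, 2.41 and 3.08. All cell body samples lay above all protrusion samples, and replicate 4 was the lowest cell body sample in both lines. The RNA was 2.09-fold lower in HBB protrusions, with a log2 fold change of -1.06 ± 0.17 (adjusted p = 4.85e-05), and 2.12-fold lower in those of Pkp4 cUTR cells, with -1.08 ± 0.18 (adjusted p = 7.39e-05).

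The other members among the lowest were Zfp169 (KRAB, 17 fingers) and the C2H2 genes Zfp446, Zfp46, Zfp579, Zfp276, Zfp319 and Zfp574. Zfp169 had -1.04 ± 0.30 in HBB cells and -1.08 ± 0.30 in Pkp4 cUTR cells, with replicate 4 of the cell bodies at 1.19 and 1.02 log2 CPM and the other cell bodies at 1.62 to 2.34. Its fractions overlapped in Pkp4 cUTR cells through replicate 4. Zfp579 had 5.90, 5.86, 6.14 and 5.93 log2 CPM in HBB cell bodies, 4.94, 5.13, 4.77 and 5.02 in HBB protrusions, and a log2 fold change of -0.99 ± 0.09 (adjusted p = 6.99e-08). It was -0.80 ± 0.09 in Pkp4 cUTR cells. The fractions of Zfp446, Zfp46, Zfp579, Zfp276, Zfp319 and Zfp574 did not overlap in either line, with log2 fold changes of -1.01 to -0.71.

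**Figure D4:**
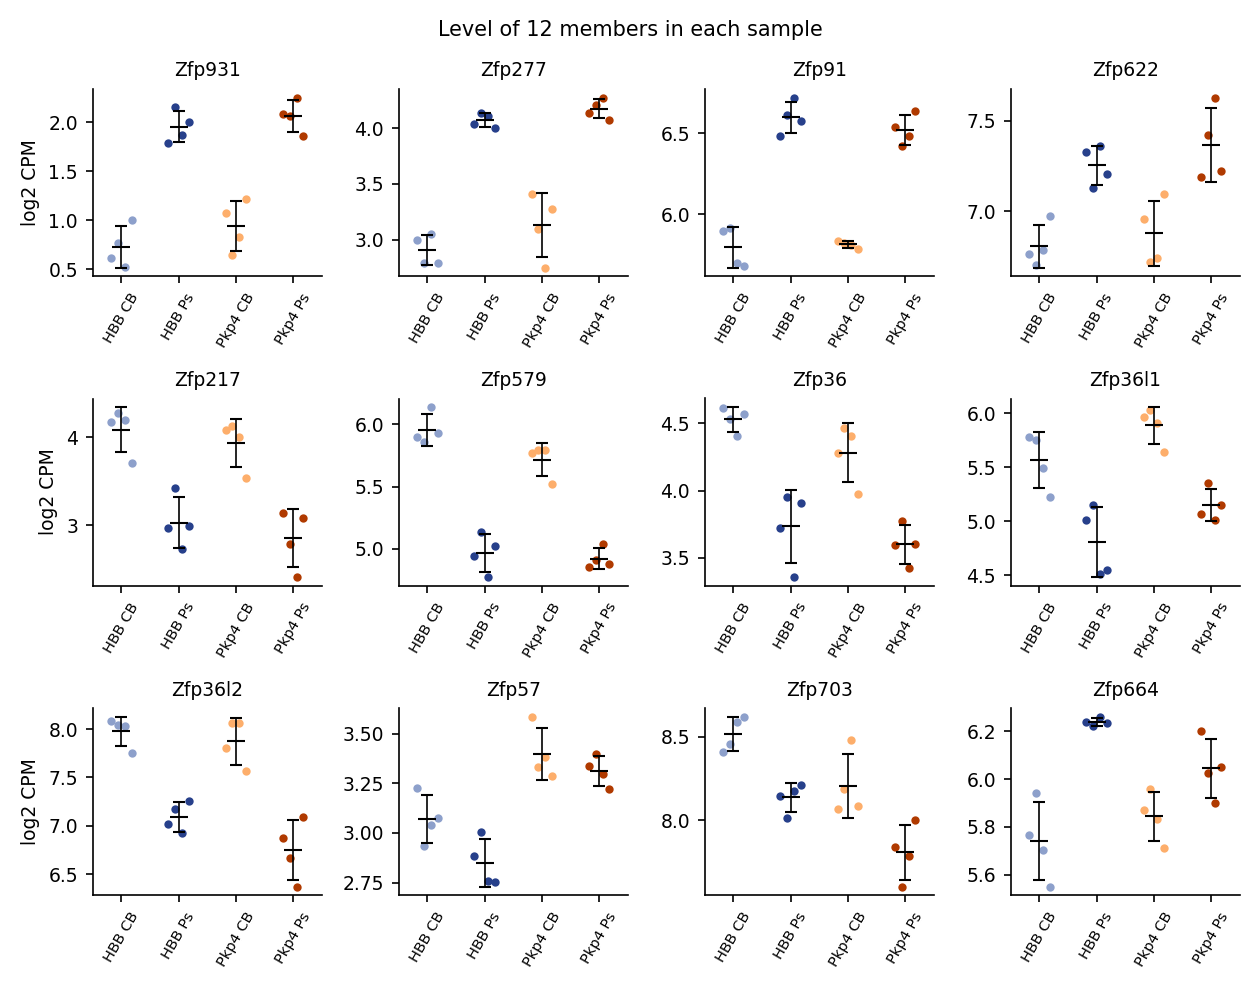
Log2 CPM of 12 members in each sample (coloured points) with the mean and SD of the 4 replicates (black), for HBB cell bodies, HBB protrusions, Pkp4 cUTR cell bodies and Pkp4 cUTR protrusions, each panel on its own scale. Zfp931, Zfp277, Zfp91 and Zfp622 are higher in the protrusions of both lines, Zfp217, Zfp579 and the 3 Zfp36 genes are higher in the cell bodies, and Zfp57 and Zfp703 differ between the lines in both fractions.

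Base composition differed between the members that were higher and those that were lower. The 30 members higher in HBB protrusions had a median transcript G+C of 41.6% and the 76 lower ones one of 53.6%. Among all RNAs with a mean log2 CPM of at least 1 the medians were 47.5% and 54.1%. Across 166 members with a coding transcript the log2 fold change and G+C had a Pearson r of -0.512 (Spearman rho -0.522) in HBB cells and of -0.548 (rho -0.550) in Pkp4 cUTR cells, against -0.389 and -0.397 across 11356 RNAs. Transcript length (r of -0.03), 3′UTR length (0.03) and the number of C2H2 fingers (-0.09) showed little relation with the log2 fold change in HBB cells. The mean level had an r of -0.24. These values are descriptions across RNAs that share their libraries and are not independent.

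Below 45% G+C, 19 of 39 members (48.7%, against 57.6% of the other RNAs) were higher in HBB protrusions and 2 (5.13%, against 7.89%) were lower, with a median log2 fold change of 0.37, the same as the 0.37 of the other RNAs of that range with a mean log2 CPM of at least 1. Between 45% and 50%, 4 of 40 (10.0%, against 33.3%) were higher and 15 (37.5%, against 24.2% of the other RNAs) were lower. Between 50% and 55%, 31 of 42 members (73.8%) were lower, against 42.0% of the other RNAs, and the median was -0.50 against -0.15. At 55% and above, 28 of 45 (62.2%) were lower, against 51.4%, with a median of -0.37 against -0.25. In Pkp4 cUTR cells the medians over the members in these ranges were 0.59, -0.21, -0.50 and -0.34, and those over the other RNAs were 0.38, 0.03, -0.16 and -0.21.

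**Figure D5:**
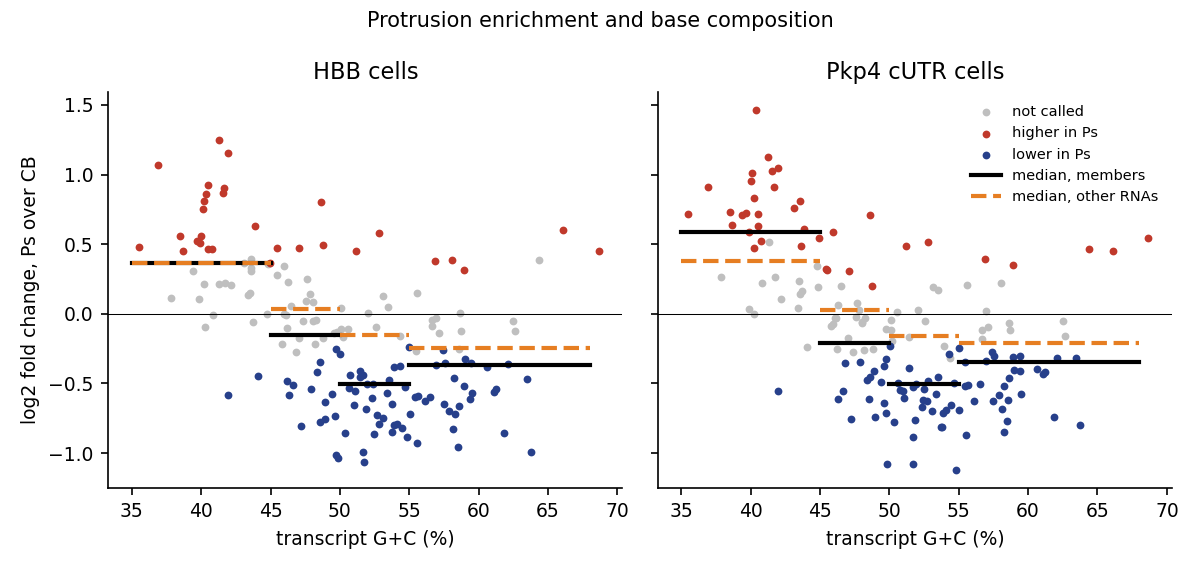
Log2 fold change of protrusions over cell bodies against the G+C (%) of the longest coding transcript for 166 members, in HBB cells (left) and Pkp4 cUTR cells (right), coloured by the call at adjusted p under 0.05, with medians per G+C range for the members (black) and for the other RNAs with a mean log2 CPM of at least 1 (dashed). Red points gather below 45% and blue points above 50%, where the black medians (-0.50 and -0.37 in HBB cells) lie below the dashed ones.

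By protein class, 7 of the 52 KRAB genes (13.5%) were higher and 21 (40.4%) lower in HBB protrusions (median -0.10). In Pkp4 cUTR cells 11 (21.2%) were higher and 19 (36.5%) lower (median -0.07). Of the 107 C2H2 genes without a KRAB pattern, 22 (20.6%) were higher and 50 (46.7%) lower in HBB cells (median -0.17). In Pkp4 cUTR cells 25 (23.4%) were higher and 53 (49.5%) lower (median -0.25). The shares over all RNAs were 28.3% higher and 28.9% lower in HBB cells, and 28.2% and 28.5% in Pkp4 cUTR cells. The KRAB genes had the lower median G+C, 46.4% against 52.6%. Within the range of 50% to 55% G+C, 9 of 11 KRAB genes and 19 of 28 others were lower in HBB cells, with medians of -0.57 and -0.46, and below 45% the medians were 0.32 (20 genes) and 0.47 (19 genes). The 46 members on chromosome 7 had 6 higher and 25 lower in HBB cells (median -0.35), and the 121 on other chromosomes had 24 and 51 (median -0.14).

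All 3 CCCH genes were lower in protrusions of both lines, with a median log2 fold change of -0.79 in HBB cells and -0.74 in Pkp4 cUTR cells. Of all RNAs 28.9% were lower in HBB cells and 28.5% in Pkp4 cUTR cells, and of the members 45.5% in each line. The median G+C of the 3 genes was 54.1%. Between 50% and 55% G+C, 73.8% of the members were lower in HBB cells. The 3′UTRs of the 3 CCCH genes hold the AU-rich nonamer that such proteins bind, searched as TTATTTATT on the RNA strand only. One copy from each gene is shown because it is the feature by which these RNAs are known as targets of their own products, with the nonamer in capitals and the sequence read in the direction of the RNA from GRCm38. It lies at chr7:28376951-28376979 in Zfp36, at chr12:80108167-80108195 in Zfp36l1 and at chr17:84184914-84184942 in Zfp36l2, each on the minus strand.
Zfp36 site: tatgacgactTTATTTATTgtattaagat
Zfp36l1 site: aactgttggaTTATTTATTttagaaattc
Zfp36l2 site: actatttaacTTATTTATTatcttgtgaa
The nonamer was found in the 3′UTR of 18 members (10.8%) and of 799 of all RNAs with a coding transcript (7.04%). A match describes these letters and does not show binding, and a relation of the nonamer with the fold change was not tested.

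Zfp36, also known as tristetraprolin, measured 4.62, 4.53, 4.40 and 4.57 log2 CPM in HBB cell bodies and 3.72, 3.96, 3.36 and 3.91 in HBB protrusions, with no overlap and a log2 fold change of -0.79 ± 0.12 (adjusted p = 2.76e-05). The same RNA measured 4.28, 4.47, 4.41 and 3.97 and 3.59, 3.78, 3.42 and 3.60 in Pkp4 cUTR cells, with -0.69 ± 0.13 (adjusted p = 0.000166). Zfp36l1 measured 5.78, 5.75, 5.49 and 5.23 in HBB cell bodies and 5.01, 5.15, 4.51 and 4.55 in HBB protrusions. Its fractions did not overlap in either line, with -0.76 ± 0.14 and -0.74 ± 0.14. Zfp36l2, the most abundant of the family by CPM per kb (52.2, against 14.3 for Zfp36l1 and 4.93 for Zfp36), measured 7.80, 8.06, 8.06 and 7.56 in Pkp4 cUTR cell bodies and 6.87, 6.67, 6.37 and 7.09 in protrusions. Its log2 fold change of -1.12 ± 0.14 (adjusted p = 2.47e-06) was the lowest of all members in that line, and it was -0.88 ± 0.14 in HBB cells.

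The partners of these decay factors were mixed. The list held 28 symbols of the CCR4-NOT, decapping and deadenylation machinery and of the RNA-binding proteins Elavl1, Hnrnpd (also listed as Auf1) and Khsrp. Of these symbols 26 had a row. In HBB protrusions 5 were higher and 11 lower (median -0.03), and in Pkp4 cUTR cells 7 were higher and 11 lower (median -0.04). Of 10 immediate early genes, which are short-lived like Zfp36, 0 were higher and 2 (Dusp1 and Myc) were lower in HBB cells, with a median of -0.11, and 2 were higher and 2 lower in Pkp4 cUTR cells, with a median of 0.08. Over all RNAs the shares were 28.3% higher and 28.9% lower in HBB cells, and 28.2% and 28.5% in Pkp4 cUTR cells. The difference between these lists and the Zfp36 family was not tested.

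The other members with a role in RNA did not move as one. Zfp106, an RNA-binding protein that maintains motor neurons and muscle, was higher in protrusions, with 0.47 ± 0.09 in HBB cells and 0.31 ± 0.09 in Pkp4 cUTR cells. Zfp346, which binds double-stranded RNA, was lower (-0.23 ± 0.09 and -0.25 ± 0.09), but its call was lost without HBB CB replicate 2 or 3 or HBB Ps replicate 1 or 2 (adjusted p = 0.0563 to 0.110), and in Pkp4 cUTR cells without CB replicate 3 or Ps replicate 2 or 3 (adjusted p = 0.0601 to 0.0884). Zfp385a, one of the most abundant members, gave -0.05 ± 0.08 and -0.05 ± 0.08 and did not pass the test in either line, nor did the abundant Zfp706, a repressor of Klf4, with 0.14 ± 0.07 and 0.04 ± 0.07. The same held for Zfp326, a subunit of a complex that links splicing with elongation, with 0.15 ± 0.14 and 0.23 ± 0.15.

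Zfp91 and Zfp622 were higher in protrusions of both lines. Zfp91, which encodes a ubiquitin ligase, measured 5.90, 5.92, 5.70 and 5.68 log2 CPM in HBB cell bodies and 6.49, 6.61, 6.72 and 6.58 in HBB protrusions, and 5.84, 5.82, 5.81 and 5.78 and 6.54, 6.42, 6.49 and 6.64 in Pkp4 cUTR cells. The fractions did not overlap in either line, with 0.80 ± 0.07 in HBB cells (adjusted p = 7.65e-08) and 0.71 ± 0.07 in Pkp4 cUTR cells (adjusted p = 4.19e-07). Zfp622, a cytoplasmic factor of the large ribosomal subunit, had 0.45 ± 0.10 (adjusted p = 0.00106) and 0.49 ± 0.10, without overlap in either line. Zfp593, which accompanies the precursor of that subunit out of the nucleus, had 0.38 ± 0.11 and 0.39 ± 0.11. Zfp207, a spindle protein that binds microtubules and Bub3, had 0.14 ± 0.07 and 0.03 ± 0.07 and did not pass. Zfp830 was lower, with -0.34 ± 0.10 and -0.45 ± 0.10, and so was Zfp598, another ubiquitin ligase, which was added after its values were seen (-0.36 ± 0.07 and -0.30 ± 0.07). With libraries scaled to total reads, the values of Zfp593 (0.14 and 0.13) and of Zfp106 (0.23 and 0.04) no longer passed.

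Among transcription factors of known role, Zfp335, Zfp384 and Zfp703 were lower in protrusions of both lines and Zfp148 was higher. Zfp335, a partner of a histone H3 methyltransferase complex in neural progenitors, had -0.61 ± 0.10 and -0.41 ± 0.11. Zfp384, which binds stretches of adenine, had -0.37 ± 0.09 and -0.29 ± 0.09, and its call in Pkp4 cUTR cells was lost without CB replicate 3 or Ps replicate 3 (adjusted p = 0.0502 to 0.0546). Zfp703, a corepressor of the NET family, had -0.38 ± 0.10 and -0.40 ± 0.09. Zfp148 (ZBP-89) measured 3.03, 2.77, 2.74 and 2.61 in HBB cell bodies and 3.33, 3.46, 3.15 and 3.28 in HBB protrusions, with 0.51 ± 0.12 (adjusted p = 0.00139). It had 0.59 ± 0.12 in Pkp4 cUTR cells, and with total reads it no longer passed in HBB cells (0.27, adjusted p = 0.0858). Its paralog Zfp281, a regulator of pluripotency, passed in Pkp4 cUTR cells (0.76 ± 0.17, adjusted p = 0.00108) and not in HBB cells (0.36 ± 0.18, adjusted p = 0.0946), and the difference between the lines was not called (log2(Diff FC) of 0.40 ± 0.25, adjusted p = 1.00).

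Other listed transcription factors were not called, among them the adipocyte regulators Zfp423 and Zfp521. Zfp423, a determinant of preadipocytes, had -0.09 ± 0.16 and -0.18 ± 0.15. Its relative Zfp521, which opposes adipogenesis, had 0.04 ± 0.10 and -0.11 ± 0.10, and Zfp462 had -0.05 ± 0.15 and -0.07 ± 0.15. Zfp143, an activator that binds promoters, had 0.00 ± 0.17 and 0.34 ± 0.16. None of these passed the test in either line. The SE of these values was 0.10 to 0.17. Since even 0.34 ± 0.16 was not called, a missing call does not show equal levels at this depth and number of replicates.

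Of the KRAB repressors with a known target, Zfp57, which keeps the methylation of imprinted loci, measured 3.22, 2.94, 3.04 and 3.08 in HBB cell bodies and 2.89, 3.01, 2.76 and 2.75 in HBB protrusions, and the fractions overlapped (-0.22 ± 0.10, adjusted p = 0.0705). Zfp568, which represses a placental transcript of Igf2, was lower, with -0.44 ± 0.14 in HBB cells and -0.55 ± 0.14 in Pkp4 cUTR cells, and the call in HBB cells was lost without HBB Ps replicate 3 (adjusted p = 0.0524). Zfp809, which silences retroviruses, Zfp932 and Zfp748 lay under the threshold, and Zfp638 had no row. Of 21 corepressor and silencing genes, 6 were higher and 7 lower in HBB protrusions (median -0.06) and 6 and 9 in Pkp4 cUTR cells (median -0.05). The background over all RNAs was 28.3% higher and 28.9% lower in HBB cells, and 28.2% and 28.5% in Pkp4 cUTR cells. Among the 21 genes Trim28 had -0.28 ± 0.06 and -0.24 ± 0.06, and Setdb1 had -0.41 ± 0.10 and -0.30 ± 0.10, each passing in both lines.

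Other zinc finger families were counted beside the members. Of 37 Zbtb genes, 3 were higher and 20 lower in HBB protrusions (median -0.38). Of 11 Klf genes, 0 were higher and 9 lower (median -0.56), among them Klf4 with -0.56 ± 0.09. Of 7 Zkscan genes 0 were higher and 4 lower (median -0.28), and of 8 Zscan genes 0 and 5 (median -0.52). The 4 listed Sp genes had 1 higher and 0 lower (median 0.14), and the 6 Zmym genes, whose fingers are not C2H2, had 2 and 2 (median 0.05). In Pkp4 cUTR cells the counts were 5 and 20 for Zbtb, 0 and 7 for Klf, 0 and 4 for Zkscan, 0 and 4 for Zscan, 2 and 1 for Sp and 2 and 2 for Zmym. Beside these counts, 28.3% of all RNAs were higher and 28.9% lower in HBB cells, and 28.2% and 28.5% in Pkp4 cUTR cells. The families were not tested against each other.

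The rows under the threshold had positive medians. Of the 85 of these 86 with a coding transcript, 20 (23.5%, against 28.3% of all RNAs) were higher and 13 (15.3%, against 28.9%) lower in HBB protrusions (median 0.35). For Pkp4 cUTR cells 34 (40.0%, against 28.2%) were higher and 7 (8.24%, against 28.5%) lower (median 0.59). Their median G+C was 41.6%, and 64 of them lay below 45%, where the median was 0.45 in HBB cells. Over all 253 rows 51 were higher and 89 lower in HBB cells, where 28.3% and 28.9% of all RNAs were. In Pkp4 cUTR cells 72 were higher and 83 lower, where 28.2% and 28.5% of all RNAs were. The medians over the 253 rows were -0.06 and -0.02, against -0.17 and -0.20 over the members and 0.01 over all RNAs in each line. The size of the difference from all RNAs thus depended on the level threshold.

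The next question was whether the Pkp4 competitor changed the enrichment, measured as log2(Diff FC), the log2 fold change in Pkp4 cUTR cells minus that in HBB cells. With limma-voom 0 of 167 members passed an adjusted p under 0.05, and 0% of all RNAs did. At an unadjusted p under 0.05 there was 1 member (0.599%), against 2.33% of all RNAs, and limma without weights also called 0 at the adjusted threshold, as did every other alternative fit. The median over the members was 0.04 (range -0.30 to 0.60), against 0.01 over all RNAs. At an unadjusted p under 0.1, 6 members were higher (Zfp335os, Zfp68, Zfp747, Zfp426, Zfp777 and Zfp53), against 3.44% of all RNAs, and 2 were lower (Zfp664 and Zfp410), against 2.36%.

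The member under an unadjusted p of 0.05 was Zfp664, a C2H2 gene with 9 fingers. In HBB cells Zfp664 measured 5.76, 5.94, 5.71 and 5.55 log2 CPM in cell bodies and 6.24, 6.22, 6.26 and 6.23 in protrusions. In Pkp4 cUTR cells it measured 5.87, 5.96, 5.83 and 5.71 and 6.20, 6.03, 5.90 and 6.05. The HBB protrusions lay above all Pkp4 cUTR protrusions, and the cell bodies of the lines overlapped. Its log2 fold change was 0.50 ± 0.08 in HBB cells and 0.20 ± 0.08 in Pkp4 cUTR cells, and log2(Diff FC) was -0.30 ± 0.12 (adjusted p = 1.00 by limma-voom, 0.0195 before adjustment). The call in Pkp4 cUTR cells (adjusted p = 0.0443) was lost in 12 of the 16 fits that left out 1 sample (highest adjusted p = 0.152), and with total reads its value was -0.07.

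Zfp410, the activator of the chromatin remodeller gene Chd4, had a log2(Diff FC) of -0.24 ± 0.14 (0.0985 before adjustment). Zfp330 and Zfp106, which were higher in protrusions of both lines, had -0.15 ± 0.11 and -0.17 ± 0.13, neither past an unadjusted p of 0.1. With total reads Zfp330 no longer passed in Pkp4 cUTR cells (0.05, adjusted p = 0.641). On the positive side Zfp68 had 0.60 ± 0.31 (0.0668 before adjustment), Zfp426 had 0.48 ± 0.26 and Zfp747 had 0.31 ± 0.17. Zfp335os, an antisense RNA whose gene overlaps the start of Zfp335, had 0.51 ± 0.26. The libraries were stranded, but the strand setting of the counting is not given in the sources used here, so reads of this gene and of Zfp335 in the overlap may not have been told apart.

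The lines were also compared within each fraction. In cell bodies 5 members were higher in Pkp4 cUTR cells (2.99%, against 3.42% of all RNAs) and 3 were lower (1.80%, against 5.55%). In protrusions 5 were higher (2.99%, against 2.89%) and 1 was lower (0.599%, against 4.26%). The share higher in protrusions was near the background and the others lay below it. The medians over the members were 0.04 in cell bodies and 0.07 in protrusions, against 0.00 and 0.02 over all RNAs, and the members ranged from -0.33 to 0.49 and from -0.39 to 0.50 on the log2 scale. With the replicate number as a block, 6 members were higher and 4 lower in cell bodies and 8 higher and 2 lower in protrusions. In that fit 4.70% of all RNAs were higher and 6.51% lower in cell bodies, and 4.47% and 5.87% in protrusions. The number pairs the lines within a fraction, but this block gave each number 1 effect shared by both fractions. The 3 epithelial markers with a row of 5 listed had a summed level of 7.27 to 7.58 log2 CPM in the HBB samples and 7.83 to 8.16 in the Pkp4 cUTR samples, and their part in these results was not tested.

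Zfp57, Zfp61, Zfp637 and Zfp956 were higher and Zfp703 was lower in Pkp4 cUTR cells in both fractions, which are separate samples of the same pair of lines. Zfp57 measured 2.89, 3.01, 2.76 and 2.75 log2 CPM in HBB protrusions and 3.34, 3.40, 3.29 and 3.22 in Pkp4 cUTR protrusions. In cell bodies it measured 3.22, 2.94, 3.04 and 3.08 and 3.59, 3.33, 3.38 and 3.29. The lines did not overlap in either fraction, with a log2 fold change of 0.46 ± 0.10 in protrusions (adjusted p = 0.0102) and 0.33 ± 0.09 in cell bodies (adjusted p = 0.0264). The call in protrusions held with each of the 16 samples left out in turn, and that in cell bodies was lost without HBB CB replicate 2 or 3 or Pkp4 CB replicate 1 (adjusted p = 0.0792 to 0.109). Zfp956 had 0.48 ± 0.12 and 0.32 ± 0.09, and Zfp61 had 0.43 ± 0.12 and 0.33 ± 0.10, both without overlap between the lines. Zfp637 had 0.41 ± 0.11 and 0.34 ± 0.10. With libraries scaled to total reads none of the 5 was called in both fractions, since Zfp57, Zfp637 and Zfp703 passed in protrusions only and Zfp61 and Zfp956 in neither.

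Zfp703, the most abundant member by log2 CPM, measured 8.14, 8.01, 8.18 and 8.21 in HBB protrusions and 7.84, 7.60, 7.78 and 8.0 in those of Pkp4 cUTR cells. It fell by 0.33 on the log2 scale in protrusions (SE 0.09, adjusted p = 0.0394) and by 0.31 in cell bodies (adjusted p = 0.0491). Called only in cell bodies were Zfp369, a KRAB gene, with 0.49 ± 0.13 (adjusted p = 0.0259), Zfp523 with -0.32 ± 0.08 (adjusted p = 0.0133) and Zfp513 with -0.27 ± 0.08. Called only in protrusions was Zfp944, a KRAB gene, with 0.50 ± 0.13 (adjusted p = 0.0307). Their values in the other fraction were 0.32 ± 0.14, -0.19 ± 0.08, -0.14 ± 0.08 and 0.31 ± 0.14, and a difference between the fractions was called for none of them.

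Several of these calls lay near the threshold and were lost when a library was left out. In cell bodies 0 members were higher without HBB CB replicate 2, without HBB CB replicate 3 or without Pkp4 CB replicate 1, and 0 were lower without HBB CB replicate 3. Of all 12900 RNAs, 238 to 301 were higher in those fits, against 441 with all samples, and 453 were lower without HBB CB replicate 3, against 716. In protrusions 2 members were higher without HBB Ps replicate 1 or 4 or Pkp4 Ps replicate 2, 3 or 4, where 185 to 299 of all RNAs were. Without Pkp4 Ps replicate 1 the count was 9 members and 429 of all RNAs, against 373 of all RNAs with all samples. Zfp523 lost its call only without HBB CB replicate 3 (adjusted p = 0.0596). Zfp703 lost its call in 12 of 16 such fits in cell bodies and in 7 of 16 in protrusions, with adjusted p up to 0.154 and 0.144. The losses were 8 and 9 of 16 for Zfp61, 8 and 3 for Zfp956, and 10 and 5 for Zfp637, in cell bodies and protrusions, with adjusted p up to 0.153. Among members called in 1 fraction, Zfp369, Zfp513 and Zfp944 each lost the call in 5 of 16. Zfp512, which missed the threshold in both fractions (-0.26 ± 0.08 and -0.29 ± 0.09), passed in protrusions with the replicate block (adjusted p = 0.049), as did Zfp36l1, with 0.33 ± 0.10 in protrusions (adjusted p = 0.039) and 0.32 ± 0.09 in cell bodies (adjusted p = 0.0339). The block also called Zfp281 (0.48) and Zfp655 (0.36) higher in protrusions and Zfp362 (-0.24) lower in cell bodies. Zfp651 and Zfp36l2 had -0.29 ± 0.11 and -0.34 ± 0.14 in protrusions and did not pass.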

How the data were processed

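Whole-transcriptome RNA was measured in 16 samples. According to its methods the study aligned reads with STAR 2.4.2a to mm10, counted them over GENCODE genes with Rsubread and converted them with limma-voom 3.26.1, and the deposited values are log2 CPM on the authors' scaled library sizes. All values gave back whole reads within 0.01 reads, so limma-voom (limma 3.58.1, R 4.3.3) was refitted on those reads, with 1 mean per group, all 16 samples, the authors' library sizes and Benjamini-Hochberg adjustment over 12900 RNAs. The fit was tested on simulated data for HBB protrusions over cell bodies, where 92 of 100 RNAs changed 2-fold were called, 29 of 100 changed 1.25-fold, and 7 of 12700 unchanged ones. Only 200 RNAs were changed there, all with the same dispersion, so these rates need not hold for the data.

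The members, gene lists and tests were chosen with earlier results of these data known. Members named are the 6 highest and 6 lowest called fold changes in each line, the 4 smallest p in each direction of the other comparisons, the 5 highest levels, the edges of the threshold and listed members of known role. Protein classes, G+C and sites came from the longest coding transcript of GENCODE mouse release 21 (GRCm38), translated here. The alternatives were limma-trend, no weights, total-read scaling, quantile normalization, log2(CPM + 1), level filters, a replicate block and leaving out each library. Correlations of deviations between same-numbered samples were 0.331 to 0.628 between the cell bodies and 0.196 to 0.392 between the protrusions of the lines, so these were taken as paired, and -0.362 to 0.389 between fractions, which were not. The replicate block of the line comparisons still gave each number 1 effect shared by both fractions. The study describes the 4 replicates of a group as independent, and since all came from 1 line per construct, p-values measure the spread between samples of that line.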

Additional observations from a re-analysis of the deposited data

Results flagged for a closer look

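Of 228 groups of 4 samples tested (224 of named members and 4 of set levels), 7 held a sample far from the other 3 by Dixon's criterion (0.829), where chance gives about 11.4. In Pkp4 cUTR protrusions Zfp148 measured 3.18 log2 CPM in replicate 1 and 3.55 to 3.59 in the others, and Zfp61 measured 2.26 there and 2.41 to 2.43 in the others. Zfp512 measured 4.27 in replicate 3 of the same group and 4.50 to 4.52 in the others. In HBB cell bodies Zfp319 measured 5.30 in replicate 4, against 5.40 to 5.41, and Zfp335 measured 6.47 in replicate 3, against 6.15 to 6.18. Zfp579 measured 5.52 in replicate 4 of the Pkp4 cUTR cell bodies, against 5.77 to 5.79. Zfp938 measured 2.44 in replicate 4 of the HBB protrusions, against 2.73 to 2.76.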

How the results depend on the processing

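The sign of the medians over the members was the same in every alternative run, but their size was not. With libraries scaled to total reads, the count of members higher in protrusions was 16 in HBB cells (median -0.407) and 22 in Pkp4 cUTR cells (median -0.463), that of members differing between the lines was 1 higher and 1 lower in cell bodies and 2 higher in protrusions (median 0.030). Over all Zfp rows 51 were higher in HBB cells (median -0.056, against -0.168 over the members) and 72 in Pkp4 cUTR cells (median -0.023, against -0.195). With a mean of at least 2 the HBB median was -0.335 and 22 were higher in Pkp4 cUTR cells. With the fold above 2, 3 were higher and 3 lower in HBB cells and 5 and 3 in Pkp4 cUTR cells. For log2(Diff FC) an unadjusted p under 0.1 gave 6 higher and 2 lower, and one under 0.05 gave 1 lower. Members higher in Pkp4 cUTR cell bodies numbered 2 with limma-trend, 2 without weights, 1 with quantile normalization, 2 with log2(CPM + 1) and 1 without replicate 4 of both cell body groups, and 1 was lower without weights. Members lower in Pkp4 cUTR protrusions numbered 2 with limma-trend, quantile normalization, log2(CPM + 1), RNAs of mean at least 1 only, the replicate block, and without replicate 4 of both cell body groups, and 0 without weights. The replicate block gave 8 higher in protrusions. Between fractions, where the numbers do not pair samples, a replicate block gave 29 higher and 73 lower in HBB cells and 36 and 74 in Pkp4 cUTR cells. The causes were not tested.

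Leaving out each library gave 27 to 33 higher and 70 to 78 lower members in HBB cells (median -0.216 to -0.138), 34 to 40 and 68 to 80 in Pkp4 cUTR cells (-0.262 to -0.153), 0 to 6 and 0 to 5 between cell bodies (0.002 to 0.054), 2 to 9 and 0 to 2 between protrusions (0.045 to 0.091), and medians of 0.007 to 0.069 for log2(Diff FC). Signs were followed for the 56 named members only. Of those called, 1 turned its sign, Zfp664 in Pkp4 cUTR cells, at -0.065 with total reads (0.20 before). The other named members that turned were not called in the line concerned. In HBB cells with total reads Zfp335os was at -0.090, Zfp637 at -0.105, Zfp326 at -0.088, Zfp207 at -0.095, Zfp521 at -0.197 and Zfp143 at -0.239. Zfp143 was at -0.019 with limma-trend, without weights and with log2(CPM + 1), at -0.125 with quantile normalization, at -0.003 with RNAs of mean at least 1 only and with the block shared by the lines, at -0.022 with the replicate block, and at -0.078 to 0.095 without single libraries (negative in 5 fits). Zfp423 was at -0.163 to 0.001 without single libraries (above 0 without HBB CB replicate 3), Zfp462 at 0.067 without HBB CB replicate 1, and Zfp521 at -0.071 to 0.104 without single libraries, with -0.071 without HBB CB replicate 4 or replicate 4 of both cell body groups and at -0.021 without HBB Ps replicate 2. In Pkp4 cUTR cells with total reads Zfp369 was at -0.182, Zfp637 at -0.072, Zfp651 at -0.041, Zfp326 at -0.035 and Zfp207 at -0.237. Without single libraries Zfp385a lay there at -0.127 to 0.001, Zfp207 at -0.030 to 0.072 and Zfp462 at -0.133 to 0.020. With 4 samples a group, 29 of 100 simulated 1.25-fold differences were called, where 200 of 12900 RNAs were changed. Far more RNAs differed between the fractions in the data, so that rate does not carry over. Small differences may still have been missed.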

Other observations

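Genes with a KRAB pattern but another symbol were not members. The 11 with a mean log2 CPM of at least 1 had 8 higher and 2 lower in HBB protrusions, with a median log2 fold change of 0.64 and a median G+C of 39.8%, and also 8 higher and 2 lower in Pkp4 cUTR cells, with a median of 0.89. Over all 148 RNAs with a KRAB pattern, at any level and under any symbol, 46 were higher and 31 lower in HBB cells, with a median of 0.26. The background in HBB cells was 28.3% of all RNAs higher and 28.9% lower, and in Pkp4 cUTR cells 28.2% and 28.5%. By number of C2H2 fingers, the median in HBB cells was -0.12 for 39 members with 0 to 4 fingers, -0.14 for 59 with 5 to 9, -0.29 for 43 with 10 to 14 and -0.22 for 25 with 15 or more. These are descriptions with no test.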
